A study of Mus musculus with 8 samples.

Results

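The genes described here carry out DNA replication and the step from G1 into S phase. They were taken from a list of 34 mouse symbols: a symbol counted as measured where the array annotation gave it alone to a probe set row, and the brightest row on average stood for a symbol that had several. For Fen1, Pole and Rrm2, the 3 members with a second row, the row not kept differed between the groups by 0.01, 0.00 and -0.21. By this rule 32 of the 34 were measured, out of 22180 genes with a row of their own. The row of Rfc4, a clamp loader subunit, also carries Eif4a2, and the row of Ccne2, the cyclin E2 gene, also carries Ints8, so these members were not analysed here.

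RNA came from CD45+ CD11b+ Ly6Chi cells, the surface profile of inflammatory monocytes and macrophages, sorted by flow cytometry from tumours of 8-week-old female C57BL/6 mice. In the irradiated group 4 mice received 20 Gy to the tumour, and in the sham group 4 mice received a sham treatment; both were harvested 1 day later, with 1 array per mouse. Every mouse of both groups carried a subcutaneous tumour grown for 14 days from 1 cultured line, 152, which was derived from a spontaneous tumour of a KrasLSL-G12D/+, Trp53LSL-R172H/+, Pdx1-Cre mouse, so the model holds a single tumour line placed outside the pancreas. The mutant alleles belong to the tumour line; the sorted cells are those of the host. The comparison asks which transcripts of these cells are associated with irradiation of the tumour.

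A cell prepares to replicate by loading the MCM2 to MCM7 helicase on origins in G1, with Cdc6 and Cdt1 as loaders, and starts replication when Cdc45 and the GINS complex join it. Cyclin E with its kinase partner drives this step, and the E2F factors it releases switch on many of the genes described here. Damage to DNA lets p53 induce the kinase inhibitor p21, which blocks cyclin E kinase and returns these promoters to repressor complexes. Monocytes that have left the marrow divide little, while their precursors in the marrow divide actively.

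The values are on a log2 scale, so a difference of 1 is a factor of 2 between groups; differences are irradiated minus sham, and an adjusted p is limma's, corrected over all genes. Array medians lay between 4.68 and 4.73, and any 2 arrays correlated at 0.978 to 0.989 across genes. Of the markers of the sort, Ptprc (CD45) averaged 11.62 ± 0.09 in irradiated and 11.66 ± 0.05 in sham mice. Itgam (CD11b) averaged 11.12 ± 0.12 in irradiated and 10.94 ± 0.18 in sham mice. Ly6c2 (Ly6C) averaged 11.76 ± 0.71 in irradiated and 11.55 ± 0.42 in sham mice (SD, n = 4 each throughout).

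Replication transcripts were on balance slightly lower in irradiated mice, with all 6 helicase subunits and cyclin E1 among the genes with a lower mean. Of the 32 measured genes, 27 had a difference below 0, against 57.8% of all genes, and their median difference was -0.15, against -0.03 over all genes. At an unadjusted p under 0.05, 5 members were lower, Mcm2, Mcm4, Mcm7, Rrm1 and Ccne1, which is 15.6% of the 32 against 4.03% of all genes. By the same measure 1 member, Mcm10, was higher, against 2.05% of all genes. In limma 0 members passed the adjusted threshold of 0.05, as did 0 of all genes (0.0%), and members' adjusted p ran from 0.802 to 0.992; no other tool was run. The interval of a member reached a median of 0.31 to either side. Without irradiated mouse 2 the count of members lower at that unadjusted p was 3, namely Mcm4, Rrm1 and Ccne1, against 3.17% of all genes. Without irradiated mouse 1, 1 gene passed the adjusted threshold, the histone gene H2ac15, which is no member of the list. In RNA of a sorted population, fewer dividing cells and less replication RNA per cell cannot be told apart.

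**Figure D1:**
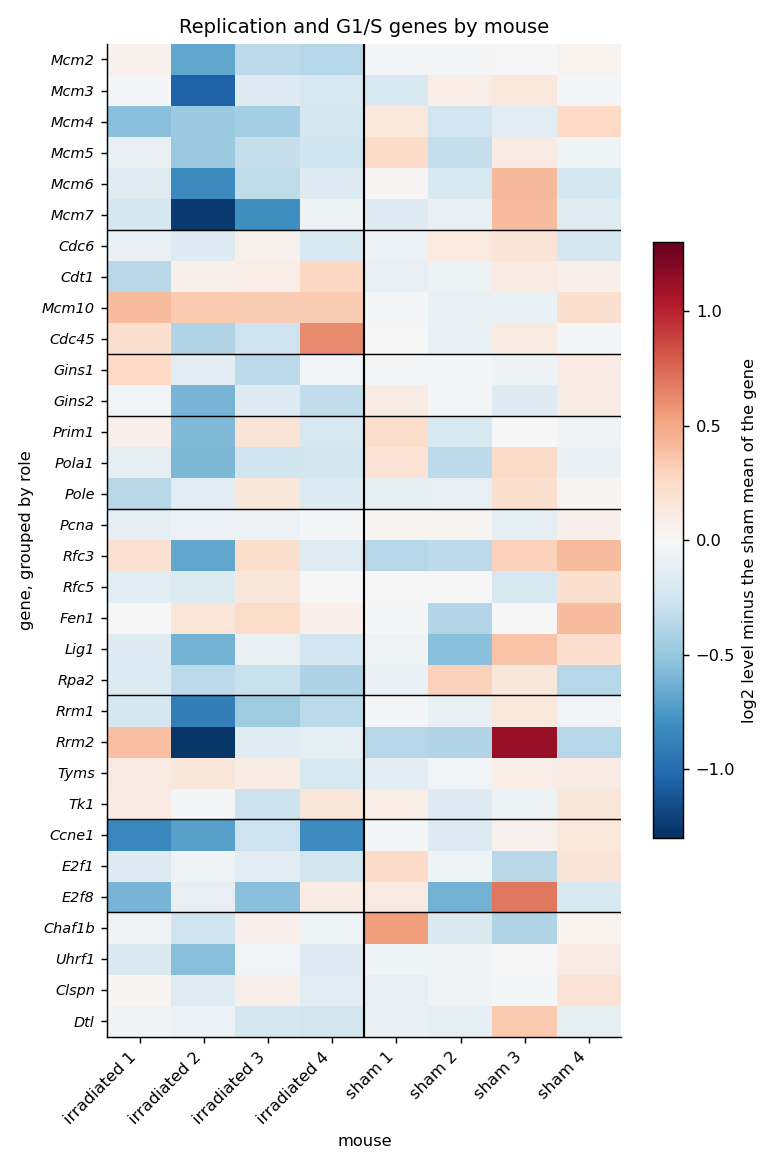
Log2 level of each of the 32 measured genes in each mouse, less the mean of that gene in sham mice; rows are genes grouped by role, columns are the 4 irradiated and then the 4 sham mice, and colour runs from blue (lower) to red (higher). Most MCM rows are blue in all irradiated mice, deepest in irradiated mouse 2, while Mcm10 is red in all 4 of them.

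**Figure D2:**
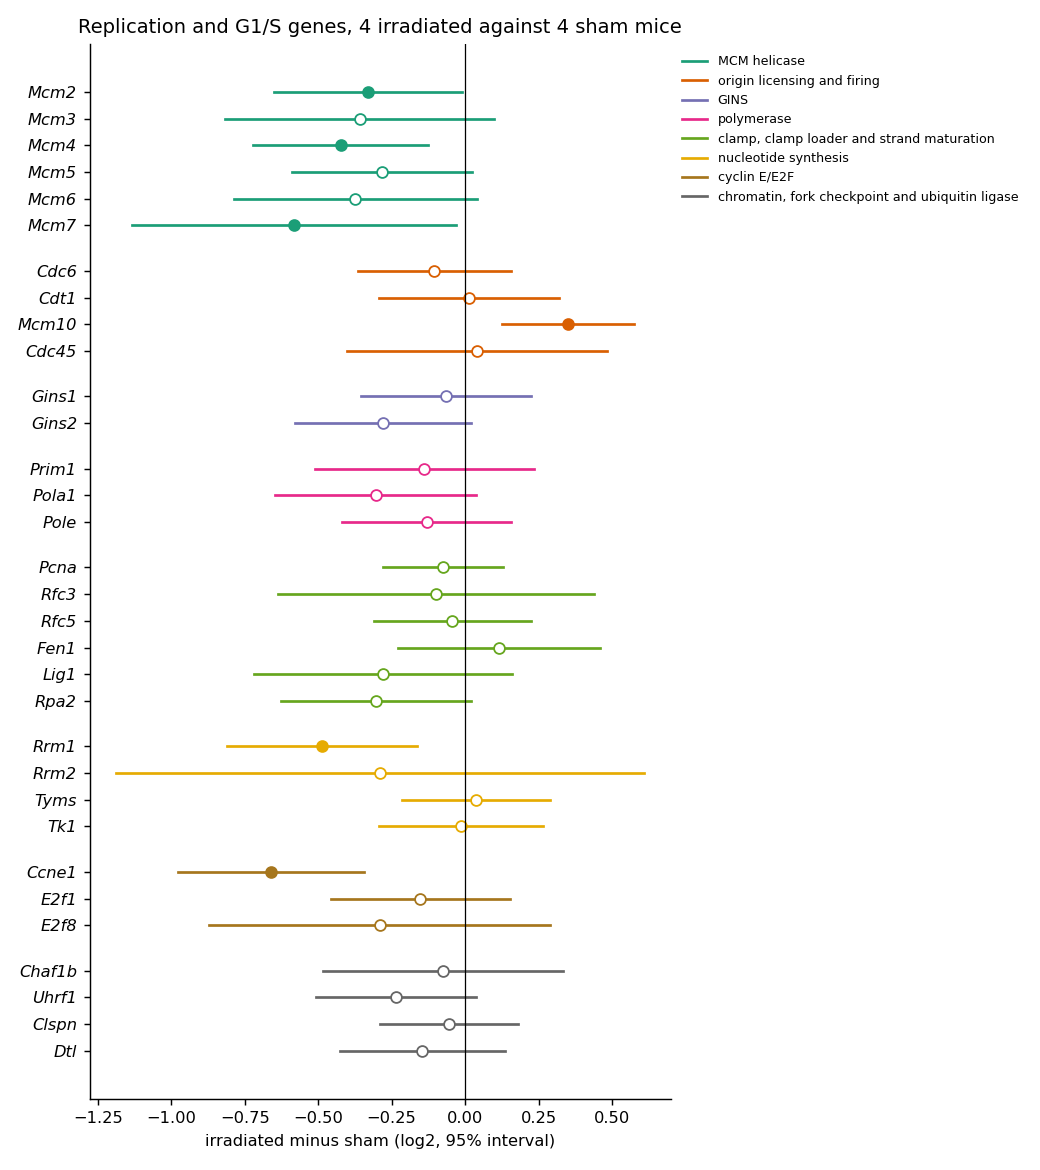
Difference, irradiated minus sham, of each measured gene on the log2 scale with its 95% interval from limma, coloured by role; filled points have an unadjusted p under 0.05. All 6 helicase subunits lie left of 0, and 6 of the 32 intervals exclude 0.

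All 6 subunits of the MCM2 to MCM7 ring, the helicase that unwinds the origin, had lower means in irradiated mice, by 0.28 to 0.58 on the log2 scale, and 3 of them did so at an unadjusted p under 0.05. Relative to the sham mean, the average of the 6 stood at -0.16, -0.79, -0.40 and -0.22 in irradiated mice 1 to 4 and at 0.00, -0.13, 0.15 and -0.03 in sham mice 1 to 4. Each irradiated mouse thus lay below each sham mouse for the average, by a narrow margin for irradiated mouse 1 against sham mouse 2. The mean difference was -0.39, or -0.26 without irradiated mouse 2.

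Mcm4 stood at 7.64, 7.70, 7.74 and 7.95 in irradiated mice 1 to 4, against 8.32, 7.93, 8.03 and 8.44 in sham mice 1 to 4. Irradiated mouse 4 just passed sham mouse 2, and the other irradiated mice lay below all sham mice. The difference was -0.42 ± 0.13 (SE), a level 1.34-fold lower in irradiated mice (adjusted p = 0.819), and it ran from -0.51 to -0.34 with each array left out in turn.

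Mcm7 stood at 5.55, 4.54, 4.98 and 5.71 in irradiated mice 1 to 4, against 5.61, 5.68, 6.19 and 5.62 in sham mice 1 to 4. Its difference, -0.58 ± 0.25 (SE), was the largest of the ring and rested in good part on irradiated mouse 2, without which it was -0.36 (adjusted p = 0.819 with all arrays). Sham mouse 3 stood apart on the high side.

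Mcm2 stood at 5.91, 5.17, 5.51 and 5.49 in irradiated mice 1 to 4, against 5.83, 5.84, 5.84 and 5.90 in sham mice 1 to 4. The sham mice were nearly identical, and 3 of 4 irradiated mice lay below them while irradiated mouse 1 lay above. The difference was -0.33 ± 0.14 (SE; adjusted p = 0.819), or -0.22 without irradiated mouse 2.

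For Mcm3, Mcm5 and Mcm6 the groups overlapped and no unadjusted p was under 0.05. Mcm3 ranged from 5.74 to 6.77 in irradiated and from 6.58 to 6.92 in sham mice, a difference of -0.36 that was -0.13 without irradiated mouse 2. Mcm5 ranged from 5.45 to 5.85 in irradiated and from 5.64 to 6.19 in sham mice (difference -0.28). Mcm6 ranged from 6.72 to 7.39 in irradiated and from 7.32 to 7.97 in sham mice, a difference of -0.37, or -0.22 without irradiated mouse 2 and -0.23 without sham mouse 3. Irradiated mouse 2 was the lowest of its group for 5 of the 6 subunits; for Mcm4 it was irradiated mouse 1.

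**Figure D3:**
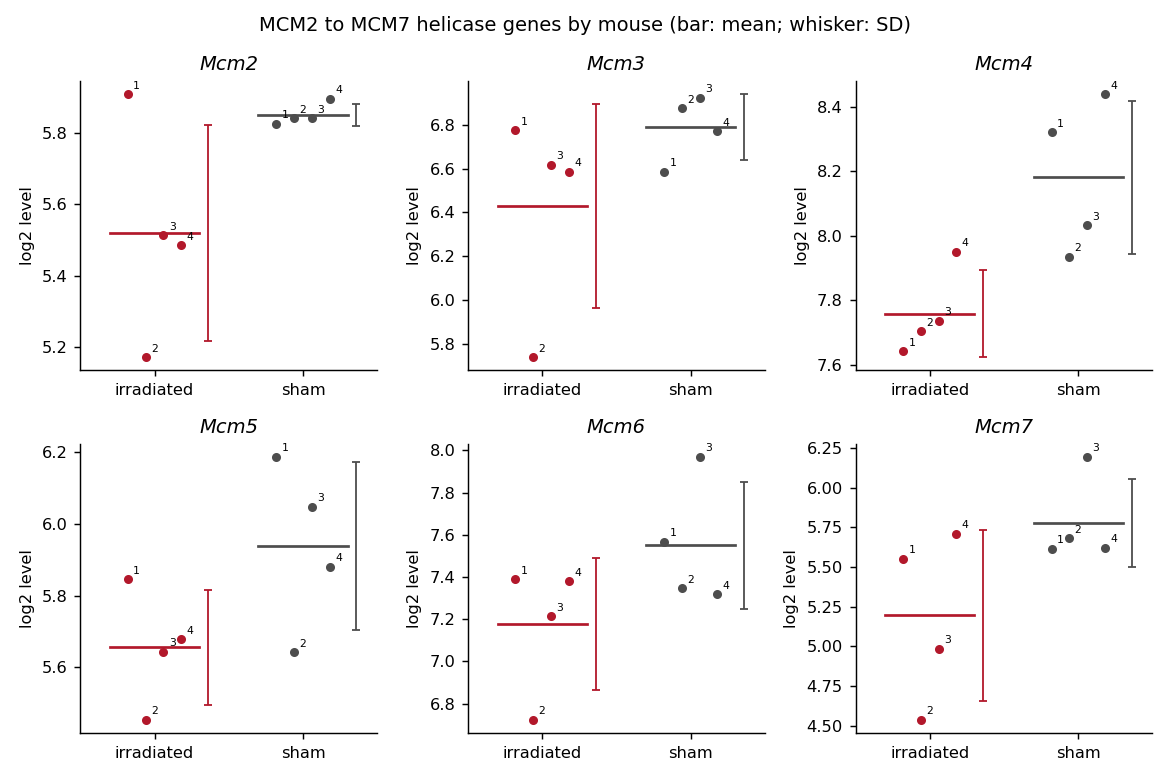
Log2 level of the 6 MCM helicase genes, with irradiated mice left and sham mice right; points are mice, numbered, the bar is the group mean and the whisker its SD (n = 4 each). Irradiated mouse 2 is lowest of its group in 5 panels, and in the Mcm4 panel the groups nearly separate, with irradiated mice from 7.64 to 7.95 and sham mice from 7.93 to 8.44.

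Because these genes are known E2F targets, their promoters were read for the E2F motifs TTTCGCGC, TTTGGCGC, TTTCCCGC and TTTGCCGC on either strand, counting overlapping matches. The windows, from RefSeq on GRCm38.p6, are 300 bases long and end 50 bases past an annotated start, read along the gene's strand; 29 of the 34 members had at least 1 window, Mcm4, Gins1, Gins2, Pole and Ccne2 being without an entry. A match was found for 12 of those 29 members, or 41.4%, against 3.26% of 16990 tested genes with a window and 2.26% of all 32851 windows. Among the replication genes outside the list 12 of 38 with a window matched, among regulators of G1/S 9 of 23, and among genes of G2/M and mitosis 1 of 27. A match is a description of the letters and not a measured site. In the ring, 4 of the 5 subunits with a window held a match, and the windows with a match are printed. Mcm2, the subunit with a window but no match, also had a lower mean in irradiated mice and is not printed. Capitals mark the motifs in either orientation, and overlapping matches run into each other. The 4 were chosen after the matches were seen, and for Mcm7 the other of its 2 windows held none.
Mcm3, chr1:20820263-20820562, minus strand: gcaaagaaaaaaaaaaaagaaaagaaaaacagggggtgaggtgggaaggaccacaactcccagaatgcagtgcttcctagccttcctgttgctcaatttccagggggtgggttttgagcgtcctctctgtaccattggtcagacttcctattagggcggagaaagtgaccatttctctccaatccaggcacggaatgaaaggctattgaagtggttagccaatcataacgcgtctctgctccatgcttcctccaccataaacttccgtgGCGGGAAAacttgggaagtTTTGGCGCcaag
Mcm5, chr8:75109259-75109558, plus strand: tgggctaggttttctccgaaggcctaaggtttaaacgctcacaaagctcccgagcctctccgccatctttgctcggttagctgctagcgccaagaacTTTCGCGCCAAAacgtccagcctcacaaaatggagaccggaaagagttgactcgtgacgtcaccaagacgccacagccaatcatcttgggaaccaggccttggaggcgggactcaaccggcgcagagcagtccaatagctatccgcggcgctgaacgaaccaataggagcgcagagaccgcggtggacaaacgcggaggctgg
Mcm6, chr1:128359656-128359955, minus strand: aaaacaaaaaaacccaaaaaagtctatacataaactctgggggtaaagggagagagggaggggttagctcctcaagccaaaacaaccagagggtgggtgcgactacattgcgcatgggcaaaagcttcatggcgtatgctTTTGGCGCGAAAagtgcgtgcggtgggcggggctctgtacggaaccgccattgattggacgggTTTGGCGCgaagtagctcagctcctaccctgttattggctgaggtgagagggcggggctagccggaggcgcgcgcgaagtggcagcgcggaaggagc
Mcm7, chr5:138171834-138172133, minus strand: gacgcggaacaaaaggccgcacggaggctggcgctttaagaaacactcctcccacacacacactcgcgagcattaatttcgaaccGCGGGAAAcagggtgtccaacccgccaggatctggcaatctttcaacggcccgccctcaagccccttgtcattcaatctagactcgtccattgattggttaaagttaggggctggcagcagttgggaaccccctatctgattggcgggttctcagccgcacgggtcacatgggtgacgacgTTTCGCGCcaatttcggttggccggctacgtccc

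The factors that load and fire the helicase had a mean difference of 0.07, with 1 of the 4 below 0; no test was made against the ring. That mean was 0.02 without irradiated mouse 4 and 0.11 without irradiated mouse 2. Mcm10, which helps turn the loaded helicase into a moving one and is no part of the ring, stood at 5.00, 4.93, 4.92 and 4.92 in irradiated mice 1 to 4, against 4.56, 4.50, 4.51 and 4.80 in sham mice 1 to 4. All irradiated mice lay above all sham mice, which held for 1.12% of all genes, and were closely spaced. The difference was 0.35 ± 0.10 (SE; 95% interval 0.12 to 0.58), a 1.27-fold higher level in irradiated mice (adjusted p = 0.819), and ran from 0.32 to 0.42 with each array left out in turn. Its sham mean of 4.59 lay under 4.70, the median of all rows, so the gene was dim on these arrays and the size of its difference is uncertain. Without sham mice 2 and 3 the difference was 0.26 and the unadjusted p no longer under 0.05.

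The loader Cdc6 ranged from 4.68 to 4.95 in irradiated and from 4.67 to 5.06 in sham mice. Cdt1, the other loader, ranged from 5.98 to 6.61 in irradiated and from 6.23 to 6.44 in sham mice. Cdc45, which travels with the active helicase, ranged from 4.94 to 5.95 in irradiated and from 5.24 to 5.45 in sham mice, so its irradiated mice were spread to both sides of the sham mice. Their differences of -0.10, 0.01 and 0.04 had intervals of -0.37 to 0.16, -0.29 to 0.32 and -0.40 to 0.48.

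Of the GINS complex, the helicase's other partner, Gins2 stood at 7.61, 7.04, 7.47 and 7.31 in irradiated mice 1 to 4, against 7.73, 7.62, 7.47 and 7.73 in sham mice 1 to 4. Sham mouse 3 lay within the irradiated range and the other sham mice above it; the difference was -0.28 (95% interval -0.58 to 0.02), or -0.17 without irradiated mouse 2. Gins1 ranged from 5.76 to 6.35 in irradiated and from 6.03 to 6.21 in sham mice, with a difference of -0.07 (95% interval -0.36 to 0.22).

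The 3 polymerase genes had differences of -0.30 to -0.13, none at an unadjusted p under 0.05. Pola1, the catalytic subunit of polymerase alpha, which starts each new strand, ranged from 6.12 to 6.58 in irradiated and from 6.37 to 6.96 in sham mice, a difference of -0.30 (95% interval -0.65 to 0.04). Prim1, the primase that lays down its RNA primer, ranged from 5.11 to 5.85 in irradiated and from 5.49 to 5.92 in sham mice; its difference of -0.14 was 0.01 without irradiated mouse 2. Pole, the leading-strand polymerase, had means of 4.48 in irradiated and 4.61 in sham mice, both under 4.70.

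Clamp, clamp loader and strand maturation genes had a mean difference of -0.11, with 5 of 6 below 0 and none at an unadjusted p under 0.05. That mean was -0.06 without irradiated mouse 2 or without sham mouse 4. Pcna, the sliding clamp that holds polymerases on DNA, stood at 10.72, 10.78, 10.78 and 10.84 in irradiated mice 1 to 4, against 10.88, 10.89, 10.73 and 10.92 in sham mice 1 to 4. Of all members it had the narrowest interval, -0.28 to 0.13 around -0.08, and only sham mouse 3 lay among the irradiated mice. Rpa2, a subunit of the complex that coats single-stranded DNA, ranged from 6.27 to 6.49 in irradiated and from 6.30 to 6.97 in sham mice, a difference of -0.30 (95% interval -0.63 to 0.02). Without sham mice 2 and 3 that difference was -0.08. Lig1, the ligase that seals lagging-strand fragments, ranged from 6.52 to 7.04 in irradiated and from 6.58 to 7.50 in sham mice, a difference of -0.28 that was -0.46 without sham mouse 2, -0.16 without sham mouse 3 and -0.17 without irradiated mouse 2. The clamp loader genes Rfc3 and Rfc5 had differences of -0.10 and -0.04. Fen1, the nuclease that trims those fragments, had a difference of 0.12 (95% interval -0.23 to 0.46).

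The 4 genes of nucleotide supply had a mean difference of -0.19, with 3 below 0 and 1, Rrm1, lower at an unadjusted p under 0.05. That mean was -0.08 without irradiated mouse 2 or without sham mouse 3, and -0.28 without irradiated mouse 1. Rrm1, the large subunit of ribonucleotide reductase, which carries the catalytic and regulatory sites of the enzyme that makes deoxynucleotides, stood at 6.75, 6.08, 6.52 and 6.63 in irradiated mice 1 to 4, against 6.97, 6.89, 7.12 and 6.95 in sham mice 1 to 4. All irradiated mice lay below all sham mice, which held for 2.56% of all genes. The difference was -0.49 ± 0.14 (SE; 95% interval -0.81 to -0.17), a level 1.40-fold lower in irradiated mice (adjusted p = 0.819), and ran from -0.57 to -0.35 with each array left out in turn. Rrm2, the small subunit, stood at 7.79, 6.13, 7.24 and 7.28 in irradiated mice 1 to 4, against 7.03, 7.01, 8.54 and 7.03 in sham mice 1 to 4. The spread within each group exceeded the difference between them, since irradiated mouse 2 was far below and sham mouse 3 far above the others. The interval of the difference, -1.19 to 0.61, was the widest of all members. Tyms, which makes thymidylate, and Tk1, which salvages thymidine, had differences of 0.04 (95% interval -0.22 to 0.29) and -0.01 (95% interval -0.29 to 0.26).

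Cyclin E1 had the largest difference of the 32 genes. Ccne1 stood at 4.72, 4.86, 5.30 and 4.75 in irradiated mice 1 to 4, against 5.54, 5.40, 5.62 and 5.71 in sham mice 1 to 4. The groups did not overlap, which held on the lower side for 2.56% of all genes, and irradiated mouse 3 came closest to the sham mice. The difference was -0.66 ± 0.14 (SE; 95% interval -0.98 to -0.34), a level 1.58-fold lower in irradiated mice, with an adjusted p of 0.802, and it ran from -0.79 to -0.60 with each array left out in turn. Ccne1 was lowest in irradiated mouse 1.

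E2f1, the E2F activator that cyclin E kinase helps to free, stood at 5.71, 5.82, 5.73 and 5.64 in irradiated mice 1 to 4, against 6.13, 5.83, 5.52 and 6.04 in sham mice 1 to 4. Sham mouse 3 alone lay below the irradiated mice, and the difference was -0.15 (95% interval -0.46 to 0.15), or -0.36 without sham mice 2 and 3. With single arrays left out it ran from -0.27 without sham mouse 3 to -0.07 without sham mouse 1, and was -0.10 without sham mouse 4. E2f8, a repressor of the same family, ranged from 5.25 to 5.95 in irradiated and from 5.25 to 6.55 in sham mice, a difference of -0.29 that was -0.06 without sham mouse 3, -0.49 without sham mouse 2 and -0.19 without irradiated mouse 1. The average of Ccne1, E2f1 and E2f8 lay lower in each irradiated mouse than in each sham mouse. It stood between -0.54 and -0.29 relative to the sham mean in irradiated mice and between -0.28 and 0.13 in sham mice. The margin was narrow for irradiated mouse 2 (-0.29) against sham mouse 2 (-0.28), and only Ccne1 had groups that did not overlap.

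**Figure D4:**
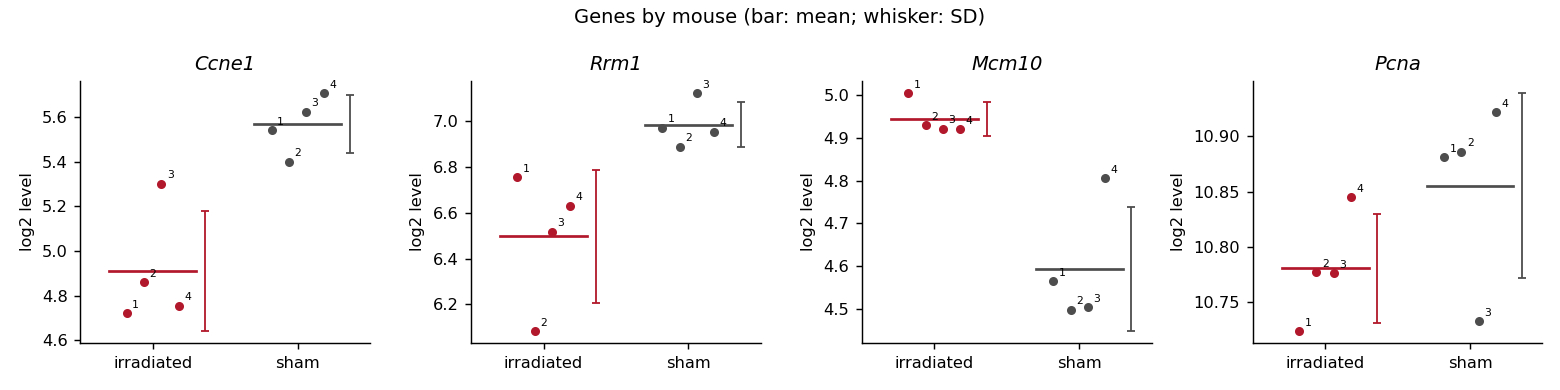
Log2 level of Ccne1, Rrm1, Mcm10 and Pcna, with irradiated mice left and sham mice right; points are mice, numbered, the bar is the group mean and the whisker its SD (n = 4 each), and each panel has its own scale. The groups do not overlap for Ccne1, Rrm1 and Mcm10, and for Pcna they overlap.

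The promoter windows of the 2 lower genes whose groups did not overlap and of the 1 higher gene are printed to set them beside those of the ring. None of the 3 windows holds any of the motifs searched in full, which says only that those letters are not in them, so no letters are in capitals. The Mcm10 window ends in tttggcg, the start of the motif TTTGGCGC, and a match running past a window's edge was not looked for.
Ccne1, chr7:38107441-38107740, minus strand: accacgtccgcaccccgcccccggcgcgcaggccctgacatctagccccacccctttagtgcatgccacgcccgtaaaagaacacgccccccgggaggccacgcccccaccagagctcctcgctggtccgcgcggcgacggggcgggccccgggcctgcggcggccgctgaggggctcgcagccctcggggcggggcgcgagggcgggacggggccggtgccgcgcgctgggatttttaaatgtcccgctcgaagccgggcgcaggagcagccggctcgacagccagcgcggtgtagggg
Rrm1, chr7:102441445-102441744, plus strand: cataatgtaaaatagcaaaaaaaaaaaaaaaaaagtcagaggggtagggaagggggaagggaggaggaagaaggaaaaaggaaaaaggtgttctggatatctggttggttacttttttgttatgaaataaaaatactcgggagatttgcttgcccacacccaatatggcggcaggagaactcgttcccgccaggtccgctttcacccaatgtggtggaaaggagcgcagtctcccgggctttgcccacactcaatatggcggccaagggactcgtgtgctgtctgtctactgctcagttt
Mcm10, chr2:5012742-5013041, minus strand: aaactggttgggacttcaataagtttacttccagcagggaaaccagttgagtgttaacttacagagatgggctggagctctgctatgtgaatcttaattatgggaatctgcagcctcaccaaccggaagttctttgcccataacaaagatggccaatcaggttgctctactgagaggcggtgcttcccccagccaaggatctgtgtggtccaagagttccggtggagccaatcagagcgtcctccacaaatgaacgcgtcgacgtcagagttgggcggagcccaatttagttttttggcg

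The remaining members act at the fork and on new chromatin, and all 4 had differences below 0, none at an unadjusted p under 0.05. Uhrf1, which brings the maintenance DNA methyltransferase to new strands, ranged from 5.35 to 5.86 in irradiated and from 5.84 to 6.01 in sham mice, so that only irradiated mouse 3 reached the sham range; the difference was -0.24 (95% interval -0.51 to 0.04), or -0.13 without irradiated mouse 2. Chaf1b, a subunit of the chaperone that puts histones on new DNA, had a difference of -0.07, and Clspn, a mediator of the fork checkpoint, one of -0.055. Dtl, the ubiquitin ligase adaptor that has Cdt1 destroyed once replication starts, had means of 4.00 in irradiated and 4.14 in sham mice, both under 4.70.

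Replication genes outside the list also mostly had differences below 0, and 0 passed the adjusted threshold. Of 47 measured, 35 (74.5%) had a difference below 0, against 57.8% of all genes, and their median difference was -0.15. The mean difference of the 47 was -0.13, or -0.08 without irradiated mouse 2. Relative to the sham mean, their average stood at 0.02, -0.31, -0.15 and -0.10 in irradiated mice 1 to 4. In sham mice 1 to 4 it stood at 0.02, 0.00, 0.07 and -0.09. At an unadjusted p under 0.05, 7 (14.9%) were lower and 0 higher, against 4.03% and 2.05% of all genes. The 6 with the smallest p were Pole2, Rpa3, Topbp1, Gmnn, Tipin and Gins4. Pole2, the accessory subunit of the leading-strand polymerase, averaged 5.13 ± 0.28 in irradiated and 5.66 ± 0.19 in sham mice, a difference of -0.52. Its groups did not overlap, which held on the lower side for 2.56% of all genes. Rpa3, the small subunit of the complex that holds Rpa2, differed by -0.37, and Topbp1, an initiation and checkpoint scaffold, by -0.32. Gmnn, which encodes the Cdt1 inhibitor geminin, differed by -0.40, the fork protection gene Tipin by -0.46 and the GINS subunit gene Gins4 by -0.29.

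Among 30 regulators of the G1/S step, 4 (13.3%) were lower and 2 higher at an unadjusted p under 0.05. The shares over all genes were 4.03% and 2.05%. Of the 30, 22 (73.3%) had a difference below 0, against 57.8% of all genes, and their median was -0.10. Cdkn1a, the p21 gene and a p53 target, averaged 12.05 ± 0.18 in irradiated and 11.66 ± 0.23 in sham mice, a difference of 0.39, and Ccnd1, the cyclin D1 gene, differed by 0.34. E2f6, a repressor of E2F targets, averaged 5.60 ± 0.30 in irradiated and 6.20 ± 0.19 in sham mice. Its groups did not overlap either, as for 2.56% of all genes on the lower side. Lin9, a core subunit of the MuvB complexes, differed by -0.45, the activator gene E2f2 by -0.44 and Cdkn2c, an inhibitor of the cyclin D kinases, by -0.29. All 6 had adjusted p of 0.819 to 0.821.

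Genes of G2/M and mitosis, set beside the list because dividing cells express both, had 19 of 33 (57.6%) below 0. Their median was -0.05, and 1 (3.03%), the kinetochore gene Ndc80, was lower at an unadjusted p under 0.05. The shares over all genes were 57.8% and 4.03%. The proliferation marker Mki67 averaged 6.47 ± 0.36 in irradiated and 6.79 ± 0.84 in sham mice. Relative to the sham mean, their average stood at 0.29, -0.63, -0.19 and 0.17 in irradiated mice 1 to 4 and at -0.20, -0.10, 0.44 and -0.14 in sham mice 1 to 4. Irradiated mouse 2 was the lowest and sham mouse 3 the highest of all 8 mice for both this average and that of the helicase ring. The mean difference of the G2/M genes was -0.09, but its sign was not stable. It was -0.21 without irradiated mouse 1, 0.09 without irradiated mouse 2 and 0.08 without sham mice 2 and 3. With the average of T and NK cell markers as a covariate it was 0.07. No test was made of the difference between the lists.

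Over the 32 members, irradiated mouse 2 was the lowest of its group for 17, irradiated mouse 1 for 7, irradiated mouse 4 for 6 and irradiated mouse 3 for 2. Irradiated mouse 2 lay below the sham mean for 28 members, irradiated mouse 4 for 26 and irradiated mice 1 and 3 for 21 each. The average of all members relative to the sham mean was -0.09, -0.40, -0.14 and -0.13 in irradiated mice 1 to 4 and 0.00, -0.14, 0.11 and 0.03 in sham mice 1 to 4. All 4 irradiated mice were below the sham mean, and sham mouse 2 lay as low as irradiated mice 3 and 4. The mean difference of -0.19 was -0.12 without irradiated mouse 2.

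Markers of other cell types also differed between mice. Their counts below 0 stand beside the 57.8% of all genes with a difference below 0. Of 24 measured T and NK cell markers 22 had a difference below 0, and their average level ranged from 5.35 to 6.57 in irradiated and from 5.45 to 7.57 in sham mice, highest in sham mice 2 and 3. Of 24 neutrophil and precursor markers 20 were below 0, with averages from 5.61 to 6.82 in irradiated and from 6.36 to 7.51 in sham mice, highest in sham mouse 3. B and plasma cell markers were below 0 for 13 of 16, with averages from 5.69 to 6.34 in irradiated and from 5.99 to 6.66 in sham mice. Markers of tumour epithelium and stroma were below 0 for 10 of 20, with averages from 5.94 to 6.69 in irradiated and from 5.67 to 6.83 in sham mice. Dendritic cell markers were below 0 for 4 of 7, with averages from 6.63 to 6.91 in irradiated and from 6.88 to 7.19 in sham mice. RMA values have no true zero, so no marker can be said to be absent.

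With the T and NK average as a covariate, the mean difference of the ring was -0.33, and Mcm4, Rrm1, Ccne1 and E2f1 were lower at an unadjusted p under 0.05. Without sham mice 2 and 3 it was -0.38, and Mcm4, Mcm5, Rrm1, Ccne1 and E2f1 were lower at that p. With the neutrophil average as a covariate, Mcm2, Mcm4, Rrm1 and Ccne1 were lower at that p. In these 3 settings 4.61%, 4.31% and 3.73% of all genes were lower at that p, and 0 genes passed the adjusted threshold in each. Mcm4, Rrm1 and Ccne1 were lower at that p in each setting, with Ccne1 at -0.73, -0.72 and -0.49. They already had such a p with all arrays, and the settings reuse those arrays, so this is no separate support. Mcm7 was at that p in none of the 3 settings, and Mcm2 only with the neutrophil average. Rrm2, at -0.29 with all arrays and no covariate, was at -0.0062, 0.083 and -0.0014 in the same settings. The part of B cell, stromal and dendritic cell markers was not tested.

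**Figure D5:**
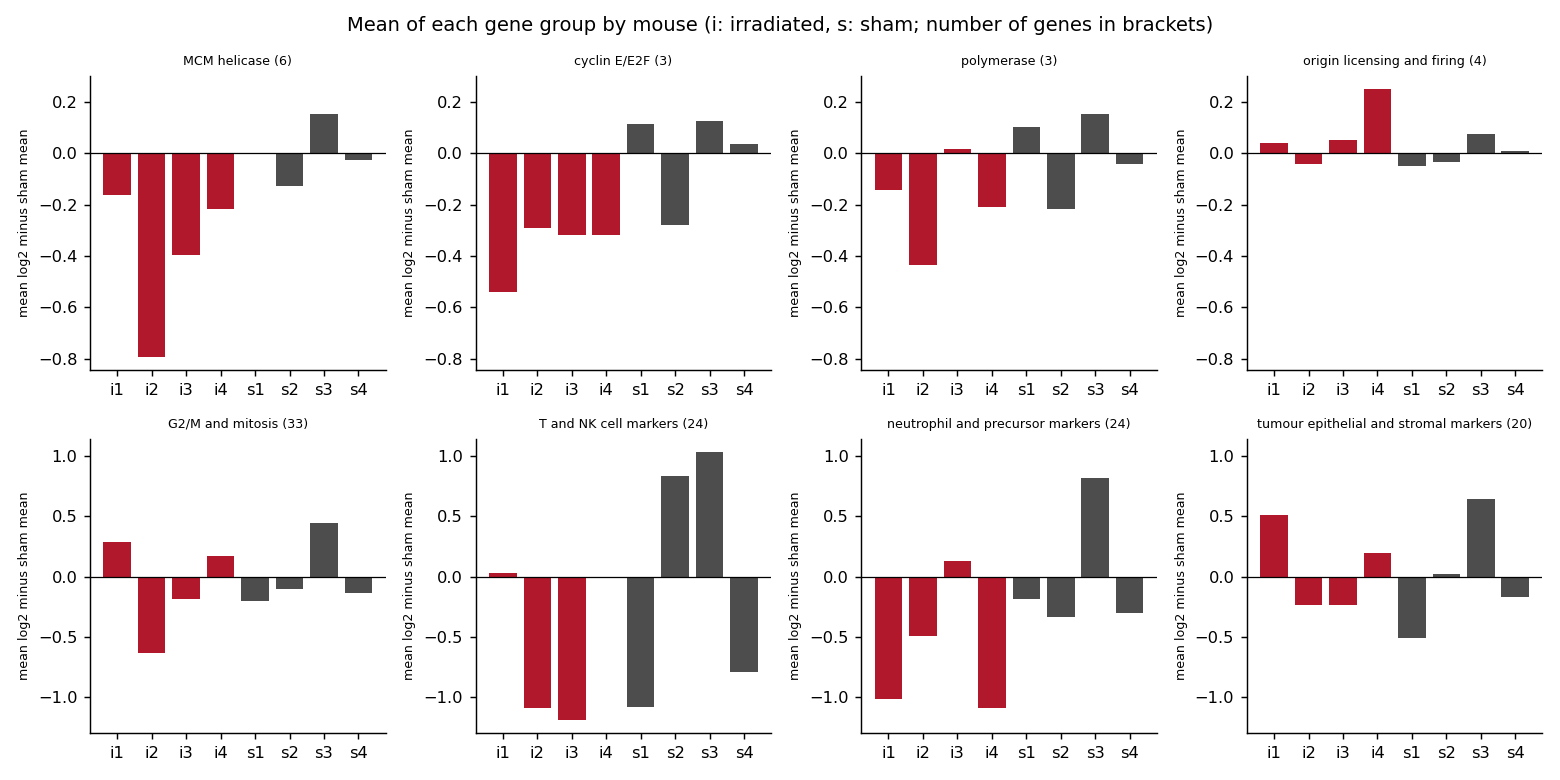
Mean log2 level of a gene group in each mouse, less the sham mean, for irradiated mice (i1 to i4, red) and sham mice (s1 to s4, grey); the upper row shows 4 groups of the list and the lower row G2/M genes and markers of other cells, with 1 scale per row and the number of genes in brackets. The helicase and cyclin E/E2F averages are lower in each irradiated mouse than in each sham mouse, both by a narrow margin against sham mouse 2. The G2/M average lies on both sides of 0 in both groups.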

How the data were processed

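Transcripts were measured on 8 Affymetrix arrays, 4 of irradiated and 4 of sham mice, with groups taken from the sample titles. Each array received 25 ng of total RNA after ribo-SPIA amplification and biotin labelling, per the labels' protocols. The deposited values are log2 levels, judged by their range. RMA and Partek are what the authors used, per the submitters' processing notes; the settings are not stated there. The number of arrays limits the precision.

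Of 34365 rows, 23521 carried 1 symbol, 1814 several and 9030 none, and 22180 genes were kept. No filter on dim genes was used; 9868 genes had a mean under 4.70. A two-sided moderated test was run with limma 3.58.1 (lmFit, eBayes; R 4.3.3). P-values were adjusted by Benjamini-Hochberg over the 22180 genes, with 0.05 as the threshold. The fit was checked on simulated data. The labels name no batch.

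The text names all members, up to 6 genes at an unadjusted p under 0.05 from each of 3 further lists, Cdkn1a, Mki67, the sort markers and, for the promoters, the leading member on each side and the next lower one. H2ac15 was named after its value was seen, and the promoter windows of Mcm3, Mcm5, Mcm6 and Mcm7 were added after their matches were seen. Members and lists were chosen with earlier results of these data known. Promoter windows are RefSeq's. Alternatives were other normalizations, filters, row rules, variance models, weights for arrays, a block for the mouse number, marker averages as covariates, sham mice 2 and 3 left out, and single arrays left out. Plots were drawn with matplotlib 3.10.9.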

Additional observations from a re-analysis of the deposited data

Results flagged for a closer look

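In 6 of the 110 groups of 4 values looked at, 1 mouse stood apart from the other 3 by more than Dixon's 95% critical value; chance alone gives about 1 in 20, or 5.5. Among irradiated mice, Mcm10 was 5.00 in mouse 1 against 4.92 to 4.93 in the others, a small gap in a tight group. Tyms was 6.51 in irradiated mouse 4 against 6.82 to 6.87. The cyclin E/E2F average relative to the sham mean was -0.54 in irradiated mouse 1 against -0.32 to -0.29. Sham mouse 3 gave the other 3: Rrm2 was 8.54 there against 7.01 to 7.03, Mcm7 was 6.19 against 5.61 to 5.68, and Dtl was 4.48 against 4.02 to 4.05. Sham mouse 3 also had the highest T and NK cell, B and plasma cell, neutrophil, stromal and G2/M averages of the sham mice. The T and NK and neutrophil averages were used as covariates for the group differences. The part of any of these averages in the values of this mouse was not tested.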

How the results depend on the processing

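Of 606 values of single members under 19 alternatives, 574 had the sign of the reported value, and the lowest adjusted p of a member under any alternative was 0.454. Signs turned for 14 of the 32 members, whose reported differences were small against their intervals. With quantile normalization Rfc5 was 0.030 and Tk1 0.0525. With the neutrophil average as a covariate Cdc6 was 0.0061, Cdc45 -0.12, Pole 0.049 and Rfc3 0.030. Without sham mice 2 and 3 Cdc6 was 0.041, Fen1 -0.076 and Rrm2 0.083, and the count of members higher at an unadjusted p under 0.05 was 0. With each array left out in turn, differences ranged from -0.15 to 0.18 for Cdc45, -0.071 to 0.14 for Cdt1, -0.21 to 0.11 for Chaf1b, -0.094 to 0.0044 for Clspn, -0.010 to 0.25 for Fen1, -0.17 to 0.023 for Gins1, -0.24 to 0.0057 for Prim1, -0.22 to 0.092 for Rfc3, -0.11 to 0.027 for Rfc5, -0.52 to 0.089 for Rrm2, -0.071 to 0.075 for Tk1 and -0.0094 to 0.12 for Tyms. Over the same arrays left out, 0 to 1 genes passed the adjusted threshold, 3 to 7 members were lower and 1 was higher at an unadjusted p under 0.05, 23 to 29 had a difference below 0, and the median ranged from -0.22 to -0.13. Of all genes, 3.17% to 4.37% were lower at that p and 53.9% to 59.1% had a difference below 0 with those arrays left out. The cause of these changes was not tested. Over all genes the split at an unadjusted p under 0.05 was 893 lower and 454 higher, but 603 lower and 662 higher with quantile normalization. Under that normalization 4 members were lower at that p, against 2.72% of all genes. A difference below 0 was then found for 25 members, against 49.6% of all genes, and the ring's mean difference was -0.35.

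Mouse numbers are shared between the groups but do not pair the mice: deviations from the group means of same-numbered mice correlated at -0.28 to -0.14 across genes, and no irradiated mouse correlated best with the sham mouse of its own number. With the mouse number as a replicate block, 5 members were lower and 1 higher at an unadjusted p under 0.05, 0 genes passed the adjusted threshold, and 709 genes were lower and 356 higher at that p. Differences themselves are the same under this block. Signal over background is not in these values; Pole and Dtl had means under 4.70 and could not be tested with dim genes left out.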
